A study of Mus musculus with 6 samples.

Results

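Nnat, Meg3, Peg3, Dlk1, Plagl1, Ndn, Snrpn, Impact, Grb10 and Igf2 are 10 imprinted genes with links to growth and metabolism, and their RNA was followed through the cell types of the adult mouse subventricular zone and cortex. They were chosen by symbol, and all 10 are among the 32285 genes of the count tables. The choice was made with the cell type pattern of these genes and the astroglial difference in Nnat already known from the same libraries. Levels by cell type and group differences in glia are therefore given as descriptions, with no test.

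Single-cell RNA was counted in 6 libraries of mice aged 8 to 12 weeks, 2 libraries per group. The control group carries floxed Gja1 (connexin 43) alleles, written Cx43flox/flox in the labels. The group Cx43GlastiKO is named for Glast, a glutamate transporter of astroglia and neural stem cells, and the group Cx43ECiKO for endothelial cells, with Vecad, the endothelial cadherin, in its titles. Per the labels the cells were sorted as CD31+Glast- endothelial cells and Glast+CD31- neural stem and progenitor cells, both CD45-, and how many mice entered a library, the driver of the deletion and how the sorted fractions were divided between libraries are not given there.

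At an imprinted gene DNA methylation set in the germ line differs between the parental copies, and RNA comes mainly from the copy of 1 parent. In most tissues Nnat, Peg3, Dlk1, Plagl1, Ndn, Snrpn, Impact and Igf2 are known as genes expressed from the father's copy. Meg3 and, outside neurons, Grb10 are known there as genes expressed from the mother's. Several of the members restrain or promote growth before birth and are switched down in most tissues afterwards. In the adult ventricular wall, Dlk1 and Igf2 are known as niche factors of neural stem cells, and choroid plexus and vessels as sources of Igf2. Counts of UMIs (unique molecules) do not separate the parental copies, so imprinting itself was not measured.

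The 7433 barcodes of the tables gave 6287 cells, with a median of 786 UMIs per cell in ECiKO replicate 2 and of 2810.5 to 10825.5 in the other 5 libraries. Any pair of libraries shared at most 1 barcode. The libraries numbered 1 held 720, 443 and 384 endothelial-like cells in control, GlastiKO and ECiKO, and at most 6 astroglial-like cells. The libraries numbered 2 held 409, 412 and 165 astroglial-like cells and 447, 602 and 1959 oligodendrocyte-like cells in the same order, but only 46, 64 and 21 endothelial-like cells. Oligodendrocyte-like cells, which neither labelled fraction names, were thus the most numerous class in those 3 libraries. Gja1 was not clearly lower where the group names place its deletion, and in endothelial-like cells of ECiKO its level was above control. In astroglial-like cells of replicate 2 the library labelled GlastiKO had 2496 CPM of Gja1 (2430 to 2563; CPM is a gene's UMI count scaled by all UMIs of the class in a library) and the control library 2550 CPM (2478 to 2624). In endothelial-like cells the libraries labelled ECiKO had 223 (197 to 251) and 209 CPM (90.4 to 412) of Gja1. Control had 91.0 (79.7 to 104) and 109 CPM (57.9 to 186), so the intervals lie apart in replicate 1 and overlap in replicate 2. The cause of the higher endothelial level was not tested. A read at the 3′ end outside a deleted part would not show a deletion, and the labels do not name that part.

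The start sites of the members differ widely in CpG content, the sequence feature on which imprinting marks are set. RefSeq promoters on GRCm38.p6 (250 bases before to 50 bases after a start site) were matched for 9 members with 17 start sites; Impact was not matched. The 30 bases directly upstream of the most CpG-rich start of 6 members are shown, 5′ to 3′ on the gene's strand, because the levels described at most length are theirs; capitals mark CpG dinucleotides.
Nnat: aagCGCGcatgCGcacttaggtggcaagag
Meg3: ctttatataaaccccacccagccagcccct
Peg3: gacaaggaggtgtccCGcagcccttgctgc
Snrpn: CGgtcagagggacagagacccctgcattgc
Grb10: ggCGggCGgggccCGgagagtttaaagccc
Igf2: ctccccctcaCGtcCGccctctgccttCGc

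These stretches lie at chr2:157560048-157560077 (Nnat, plus strand), chr12:109540966-109540995 (Meg3, plus), chr7:6730420-6730449 (Peg3, minus), chr7:60005200-60005229 (Snrpn, minus), chr11:12037421-12037450 (Grb10, minus) and chr7:142658805-142658834 (Igf2, minus). In the full 300 bases the richest start of a member held a median of 13 CpG, against 8 over the richest start of each of 27025 genes, and 8 of 9 were above that value. Grb10 had 45 CpG, a number that the richest start of 2.21% of genes reaches. Nnat had 17 and Igf2 24, while Snrpn had 7. The letters GGGCGG, searched on both strands, were in 4 of these 9 promoters (Plagl1, Ndn, Grb10 and Igf2) against 37.3% of the richest starts of all genes. TATAAA, likewise on both strands, was in 1 of 9 (Meg3) against 13.8%. A match is a description of the letters only.

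Nnat encodes neuronatin, a small membrane protein of the endoplasmic reticulum that resembles the calcium pump regulators phospholamban and sarcolipin. On mm10 (GENCODE M21) it spans bases 157560078 to 157562522 of chromosome 2 (plus strand), inside an intron of the 3 of 6 transcripts of Blcap that span it, on the opposite strand. Of 2651 Nnat UMIs in all cells used, 65.8% were in astroglial-like cells, 11.1% in neuroblast-like cells and 14.6% in cells that met no class gate. Oligodendrocyte precursor-like cells, only 2, 3 and 3 in control, GlastiKO and ECiKO replicate 2, held 59 of them (2.23%). Cycling-like cells, 3, 2 and 43 in the same libraries, held 65 (2.45%). The neuroblast-like cells, young migrating neurons, had 1777 CPM in GlastiKO replicate 2 (234 UMIs; 95% exact Poisson interval 1556 to 2020; 19 cells) and 761 CPM in ECiKO replicate 2 (31 UMIs; 13 cells). Endothelial-like cells were nearly without it, with 1 UMI in 1678 cells, and pericyte-like and choroid plexus-like cells had 0. Intervals here and below cover counting error only.

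In astroglial-like cells, which carry Slc1a3, Aqp4 and Aldoc and to which astrocytes and quiescent neural stem cells belong, the summed Nnat level differed between the 3 libraries. Control replicate 2 had 515 CPM (950 UMIs; 482 to 548), GlastiKO replicate 2 had 335 CPM (724 UMIs; 311 to 360) and ECiKO replicate 2 had 166 CPM (62 UMIs; 127 to 212). None of these counting intervals overlap, but each level is 1 library and its spread between mice is unknown. The ratio to control was 0.650 (95% exact interval 0.589 to 0.717) for GlastiKO and 0.322 (0.245 to 0.417) for ECiKO, and that of ECiKO to GlastiKO was 0.495 (0.376 to 0.642). The 2 ratios to control share the same control library. Nnat was uneven between cells, which the counting intervals do not cover. The 41, 42 and 17 cells with the most Nnat in control, GlastiKO and ECiKO held 57.4%, 61.3% and 77.4% of its UMIs.

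The Nnat difference in ECiKO replicate 2 was known when the members were chosen, and its ratio is set beside other genes only as description. A gene was counted as lower or higher in a glial class when its ratio was at least 1.5-fold and both libraries together had 100 UMIs. The astroglial-like class held 1846204 UMIs in control and 374172 in ECiKO replicate 2, so genes there reached 100 UMIs mostly through control. By that count 6.94% of 3760 genes were lower and 7.53% higher in ECiKO replicate 2 than in control, and 3.31% of 6256 genes lower and 5.91% higher in GlastiKO replicate 2. Of the 3 members with 100 UMIs in the ECiKO comparison Nnat alone was past the threshold, and of the 4 in the GlastiKO comparison again Nnat alone. These shares, and the rank of Nnat that follows, are printed beside a difference by which the genes were chosen, so nothing is read from them. In ECiKO replicate 2 a lower ratio than that of Nnat was found for 9 genes: Tsix, Xist, Fbln5, Nkx6-2, Pipox, Sfrp5, Rdh5, Lrrn1 and Ttll3, listed after their values were seen. In GlastiKO replicate 2 it was found for 171 genes. The median ratio of all genes counted was 1.02 for ECiKO and 1.05 for GlastiKO.

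**Figure D1:**
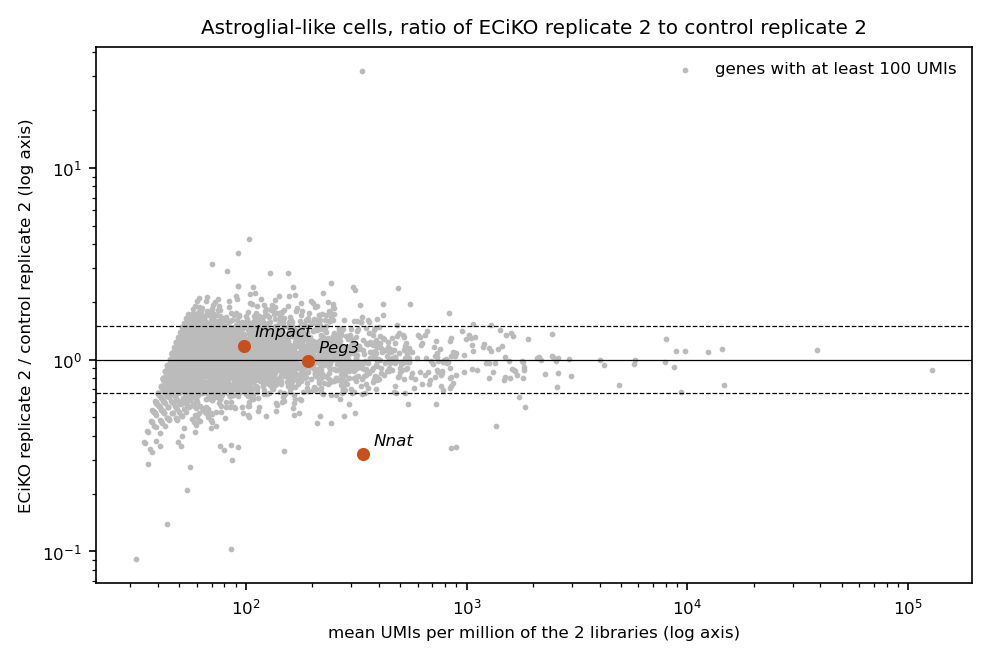
Each grey point is a gene with at least 100 UMIs in astroglial-like cells of the 2 libraries; the x axis is its mean level in CPM and the y axis its ratio of ECiKO replicate 2 to control replicate 2, both on log axes, with dashed lines at the 1.5-fold thresholds. Nnat lies at 0.322, below the lower line, and Peg3 (0.984) and Impact (1.18) lie between the lines; Xist and Tsix are not drawn.

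Several properties of ECiKO replicate 2 moved with its low Nnat level. Its astroglial-like cells had a median of 964 UMIs, against 3746 in control and 4571.5 in GlastiKO. Xist, the RNA of the inactive X chromosome, had 1 UMI in its astroglial-like cells against 1906 in control and 3340 in GlastiKO, while the 4 Y-linked genes Ddx3y, Eif2s3y, Uty and Kdm5d summed to 369, 176 and 65.2 CPM in ECiKO, control and GlastiKO. The sex make-up of the libraries therefore differed, and with 1 library per group it cannot be told apart from the genotype. The 8 choroid plexus markers summed to 711 CPM in ECiKO against 110 CPM in control and 85.5 CPM in GlastiKO, with 6 of 8 detected in each; Prlr and Aqp1 were at 0 in ECiKO, and Kl and Folr1 in the other two. Nnat itself was at 0 UMIs in the choroid plexus-like cells. The 12 oligodendrocyte markers summed to 778, 500 and 525 CPM in ECiKO, control and GlastiKO, and the 10 astroglial markers to 26178, 25044 and 26074 CPM. Ependymal markers, with Ccdc153 and Tmem212 at 0 in all 3, summed to 61.5, 73.1 and 46.7 CPM with 4, 6 and 6 of 9 detected. Neuroblast markers summed to 21.4, 6.50 and 10.6 CPM with 5, 6 and 6 of 9 detected, and Dcx was at 0 in ECiKO and GlastiKO. Cycling markers summed to 26.7, 3.79 and 7.86 CPM with 5, 3 and 7 of 10 detected and Mki67 at 0 in all 3, and erythroid markers to 37.4, 7.04 and 42.5 CPM with 2, 5 and 4 of 5 detected. The part of these differences in the Nnat result was not tested.

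The make-up of the astroglial-like class also differed between the libraries. Cluster 9, led by Agt and Slc6a11, held 44.3% of the class in control but 19.2% in GlastiKO and 11.5% in ECiKO. Cluster 4, led by Slc1a2 and Cspg5, held 26.2%, 68.2% and 40.0% in the same order. Cluster 10 held 29.3%, 12.4% and 41.2%; its cells are shallow (median 2085.5, 2420 and 792.5 UMIs), none of the class markers is among its 10 leading genes, and it is referred to by number only. The members were left out of the clustering.

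Within clusters the Nnat level kept its ECiKO difference in 2 of 3. In cluster 9 it was 693 CPM in control (743 UMIs; 181 cells), 421 CPM in GlastiKO (194 UMIs; 79 cells) and 241 CPM in ECiKO (22 UMIs; 19 cells). In cluster 4 it was 204 CPM in control (103 UMIs; 107 cells), 292 CPM in GlastiKO (458 UMIs; 281 cells) and 66.0 CPM in ECiKO (13 UMIs; 66 cells). ECiKO was thus lowest in both, while GlastiKO lay below control in cluster 9 and above it in cluster 4. In cluster 10 the 3 libraries overlapped, with 387, 376 and 366 CPM. The ECiKO ratio to control was 0.323 (0.166 to 0.577) in cluster 4, 0.348 (0.217 to 0.531) in cluster 9 and 0.945 (0.590 to 1.46) in cluster 10. The GlastiKO ratio was 1.43 (1.15 to 1.79), 0.608 (0.516 to 0.713) and 0.970 (0.672 to 1.38). Without the cells of cluster 10 the class levels were 536, 322 and 121 CPM in control, GlastiKO and ECiKO. When every cell had the same weight, the ECiKO ratio was closer to 1, at 0.567, and it was 0.505 when each cell was thinned to 500 UMIs.

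**Figure D2:**
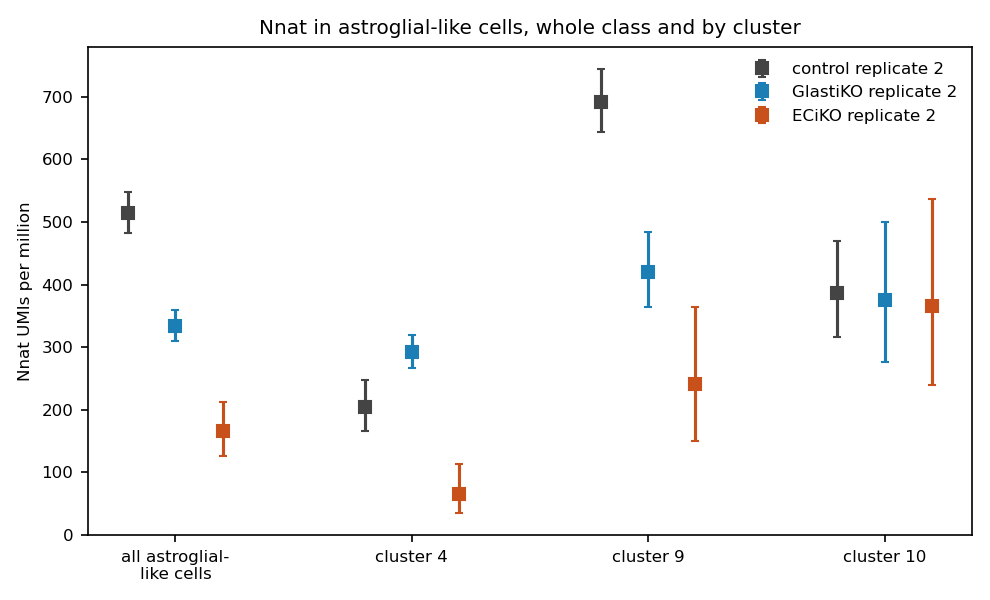
Nnat level (CPM, y axis from 0) in all astroglial-like cells and in the 3 clusters that hold most of them; points are single libraries numbered 2 and bars 95% exact Poisson intervals, which cover counting error only. ECiKO is lowest in the whole class and in clusters 4 and 9, GlastiKO is above control in cluster 4 and below it in cluster 9, and the 3 libraries overlap in cluster 10.

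The share of astroglial-like cells with a Nnat UMI had the same order as the level. Such a UMI was found in 51.8% of astroglial-like cells of control replicate 2, 43.9% of GlastiKO and 18.8% of ECiKO, and in 0.0596% of endothelial-like cells of all 6 libraries, whose library medians were 1053 to 3438 UMIs. With each cell thinned to 500 UMIs the astroglial shares were 18.6% (14.9 to 22.7), 14.1% (10.9 to 17.8) and 9.09% (5.18 to 14.6), and no cell was left out. At that equal depth the interval of GlastiKO overlapped those of control and ECiKO, while those of control and ECiKO lay just apart. Cycling-like cells of ECiKO replicate 2 (43 cells, median 958 UMIs) had a Nnat UMI in 34.9%, and in 11.6% (3.89 to 25.1) when thinned. Both shares lay above those of the astroglial-like cells of that library, with overlapping intervals when thinned.

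The genes whose pattern over cell types was most like that of Nnat were Sox1ot, Rimklb, Sox1, Sall3 and Gsdme. Pearson's r of log2(CPM + 10) was 0.984 to 0.990 over 17 pairs of library and class with at least 20 cells, among 8761 genes that reach 50 CPM in a pair. The pairs share libraries and most are endothelial-like or glial, so r describes the pattern and carries no p. Neuroblast-like cells, at most 19 in a library and the class with the highest Nnat level, were not among the pairs. In those of GlastiKO replicate 2 the listed genes had only 38.0 (Rimklb) to 167 CPM (Sox1). Sox1, a transcription factor gene of neural progenitors, had 139, 103 and 112 CPM in astroglial-like cells of control, GlastiKO and ECiKO and 0 UMIs in endothelial-like cells. The nearest of the other members was Peg3, at 0.850. Blcap, in whose intron Nnat lies, had 65.0, 61.5 and 64.1 CPM in the same 3 libraries, with no fall beside that of Nnat. No exon of the 6 Blcap transcripts overlaps Nnat, so only Blcap reads from that intron could fall on Nnat. Whether strand was used in counting is not given in the sources used here, and without it such intron reads cannot be told apart.

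Meg3 is a long noncoding RNA gene of the chromosome 12 cluster that also holds Dlk1, and it was high in pericyte-like and neuroblast-like cells. In neuroblast-like cells it had 1610 CPM in GlastiKO replicate 2 (212 UMIs; 1400 to 1842) and 1227 CPM in ECiKO replicate 2 (50 UMIs; 911 to 1618). In pericyte-like cells it had 381 and 385 CPM in control replicates 1 and 2, 314 and 409 CPM in GlastiKO and 251 and 187 CPM in ECiKO, from 31, 13, 25, 31, 6 and 11 cells. The 2 ECiKO values are lowest but rest on 7 and 4 UMIs, and their intervals reach up to 517 and 479 CPM, above both control values. A UMI of Meg3 was found in 27.3 to 74.2% of pericyte-like cells of a library (library medians of 987 to 5545 UMIs) and in 0.238% of endothelial-like cells. Meg3 was lower in astroglial-like cells, at 22.7, 26.3 and 18.7 CPM in control, GlastiKO and ECiKO replicate 2, and oligodendrocyte-like cells had 9 UMIs in all. Oligodendrocyte precursor-like cells, only 2, 3 and 3 in the same libraries, held 55 of the 872 Meg3 UMIs (6.31%).

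The pericyte level of Meg3 was shared by pericyte genes. The 5 genes most like it over the same 17 pairs were Notch3, Cox4i2, Gucy1a2, Pcdh18 and Kirrel (r = 0.920 to 0.935). The pairs leave out neuroblast-like cells, where Meg3 was highest. In those of GlastiKO replicate 2 the 5 genes had 0 (Notch3 and Cox4i2) to 38.0 CPM (Gucy1a2). Notch3, a receptor gene of mural cells, had 777 CPM in pericyte-like cells of control replicate 1 and 685 and 769 CPM in those of GlastiKO. Rian, a neighbouring noncoding RNA gene of the same imprinted cluster, had 213 CPM in neuroblast-like cells of GlastiKO replicate 2 and 21.5 to 49.6 CPM in pericyte-like cells. Dlk1, the gene of a Notch-related membrane ligand, was almost absent: 25 UMIs in all, of which 24 were in astroglial-like cells. Control replicate 2 had 15 of them (8.12 CPM), 13 in cluster 4, and GlastiKO replicate 2 had 9 (4.16 CPM), all in cluster 4. ECiKO replicate 2 had 0, which allows up to 8.02 CPM at 3 counts and 9.86 CPM by the exact 95% limit. That limit lies inside the interval of control (4.55 to 13.4 CPM), so a difference was not detectable at this depth.

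Peg3 encodes a large zinc finger protein and Impact a regulator of the kinase that controls translation under amino acid shortage. Both were found in every major class. Peg3 had 193, 160 and 190 CPM in astroglial-like cells of control, GlastiKO and ECiKO replicate 2 (356, 346 and 71 UMIs), and 75.4, 63.7 and 64.8 CPM in oligodendrocyte-like cells. Its astroglial ratio to control was 0.829 (0.713 to 0.964) in GlastiKO and 0.984 (0.752 to 1.27) in ECiKO. In neuroblast-like cells of ECiKO replicate 2 it reached 1178 CPM, but the 48 UMIs came from 2 of 13 cells, and GlastiKO replicate 2 had 98.7 CPM (13 UMIs). Usp29, a paternally expressed neighbour that starts close to Peg3 on the other strand, had 13, 8 and 0 UMIs in astroglial-like cells of control, GlastiKO and ECiKO.

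Impact had 90.5, 89.7 and 107 CPM in astroglial-like cells of control, GlastiKO and ECiKO replicate 2 (167, 194 and 40 UMIs), which overlap. The ratio to control was 0.991 (0.802 to 1.23) in GlastiKO and 1.18 (0.815 to 1.68) in ECiKO. In oligodendrocyte-like cells it had 48.0, 42.8 and 53.4 CPM. Within the astroglial-like clusters its GlastiKO ratio was 0.984 in cluster 4, 0.576 (0.356 to 0.900; 25 UMIs) in cluster 9 and 1.53 (0.610 to 3.71; 10 UMIs) in cluster 10. Its ECiKO ratio was 1.13, 1.05 and, from 8 UMIs, 2.16 (0.785 to 5.52) in the same clusters.

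Snrpn, Ndn and Plagl1 took most of their UMIs from oligodendrocyte-like cells, which carry the myelin genes Mbp and Mog and are also the class with the most cells and UMIs. Snrpn encodes a protein of the splicing machinery; 89.8% of its 4066 UMIs were in this class, at 184, 173 and 134 CPM in control, GlastiKO and ECiKO replicate 2 (1280, 1853 and 516 UMIs). Choroid plexus-like cells had similar levels of it, with 144, 160 and 155 CPM, whereas astroglial-like cells had 34.7, 31.0 and 21.4 CPM and endothelial-like cells at most 9.71 CPM. A UMI was found in 84.1%, 89.7% and 18.1% of oligodendrocyte-like cells (median 15789, 17600 and 773 UMIs) and in 1.73% of endothelial-like cells. Thinned to 500 UMIs the oligodendrocyte shares were 8.95%, 7.97% and 6.94%. Snrpn shares exons with Snurf, listed as a gene of its own with 0 UMIs in all cells, so that the counts may belong to either reading frame.

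Ndn encodes necdin, a growth suppressor of neurons from the same chromosome 7 region as Snrpn. Oligodendrocyte-like cells held 74.6% of its 1036 UMIs, at 36.3, 35.1 and 37.2 CPM in control, GlastiKO and ECiKO replicate 2. Its level was higher in the few neuroblast-like cells, with 144 CPM in GlastiKO (19 UMIs) and 196 CPM in ECiKO (8 UMIs). Plagl1, a zinc finger transcription factor gene known as a node of the imprinted gene network, had 81.9% of its 508 UMIs in oligodendrocyte-like cells, at 21.0, 18.2 and 19.5 CPM. For both genes the counting intervals of the 3 libraries overlapped. Astroglial-like cells had 22.2, 17.6 and 40.1 CPM of Ndn and 11.9, 14.3 and 26.7 CPM of Plagl1 in control, GlastiKO and ECiKO, so in ECiKO, where they rest on 15 and 10 UMIs, the astroglial values were no lower than the oligodendrocyte ones.

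In the oligodendrocyte-like cells none of the 5 members with 100 UMIs (Peg3, Plagl1, Ndn, Snrpn and Impact) passed the 1.5-fold threshold. Among all genes of this class 0.988% were lower and 1.06% higher in GlastiKO, and 1.64% were lower and 1.17% higher in ECiKO. The median ratio of the 5 was 0.892 in GlastiKO and 0.931 in ECiKO, against 0.989 and 0.965 over all genes. The ratio farthest from 1 was that of Snrpn in ECiKO, 0.731 (0.659 to 0.810), whose interval leaves out 1 but which is 1 library against 1. Choroid plexus markers summed to 12.5, 474 and 999 CPM in the oligodendrocyte-like cells of control, GlastiKO and ECiKO.

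Grb10 encodes an adaptor protein that dampens signalling of the insulin and IGF1 receptors, and it was the member found mainly in endothelial-like cells. Endothelial-like cells held 84.2% of its 537 UMIs and pericyte-like cells 7.82%, against 4 UMIs in astroglial-like and 4 in oligodendrocyte-like cells. Grb10 also had 10 UMIs in choroid plexus-like cells and 7 in cycling-like cells, with a UMI in 5 of 43 cycling-like cells of ECiKO replicate 2. Its endothelial level was 86.7 and 125 CPM in control replicates 1 and 2, 67.3 and 86.7 CPM in GlastiKO, and 77.3 CPM and 0 UMIs in ECiKO. The 0 is from 21 cells and allows up to 78.5 CPM at 3 counts and 96.5 CPM by the exact 95% limit, which is above control replicate 1. In pericyte-like cells it had 41.6 and 92.3 CPM in control, 116 and 69.9 CPM in GlastiKO, and 0 UMIs (6 cells) and 140 CPM (3 UMIs) in ECiKO, with overlapping intervals. A UMI was found in 20.9% of all endothelial-like cells and in 1 of 997 astroglial-like cells.

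The endothelial-like class is the 1 class with at least 20 cells in every library, and here the groups were tested. The 2 libraries of a group differ in cell make-up in the same way in all 3 groups, and whether they hold different sorted fractions is not given in the labels, so the errors and p-values may include that difference. Peg3 had 28.5 and 33.5 CPM in control, 23.3 and 4.82 CPM in GlastiKO and 23.3 and 52.3 CPM in ECiKO, where the second value of each group rests on 4, 1 and 2 UMIs. Impact had 32.8 and 50.2 CPM in control, 38.8 and 28.9 CPM in GlastiKO and 41.6 and 78.5 CPM in ECiKO. Impact overlapped between the groups. For Peg3 both GlastiKO libraries lay below both control libraries, and the ECiKO libraries lay on either side. The measured Grb10 value of both ECiKO libraries was below that of both control libraries, with overlapping counting intervals, while GlastiKO replicate 2 equalled control replicate 1 within rounding.

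Of the 10 members 3 passed the low-count filter in endothelial-like cells (Peg3, Impact and Grb10), and edgeR's quasi-likelihood test called none of them in either comparison. Over all 8640 genes tested it called 0.301% in GlastiKO (26 genes; 3 without control replicate 1) and 0.208% in ECiKO (18 genes; 6 without control replicate 1). For GlastiKO minus control the log2 fold change was -0.49 ± 0.42 (SE, n = 2 libraries per group) for Peg3, 0.09 ± 0.41 for Impact and -0.34 ± 0.31 for Grb10, each at an edgeR adjusted p of 0.99954. For ECiKO minus control it was -0.21 ± 0.45, 0.34 ± 0.44 and -0.38 ± 0.33, each at an edgeR adjusted p of 0.99998. None of the 3 reached an unadjusted p of 0.05 in edgeR, and DESeq2 called 0 of them as well. A p above the threshold does not show that the members were unchanged, and the errors are of the size of the fold changes. The direction for Impact turned in both comparisons without control replicate 1 (to -0.31 and -0.065) and in GlastiKO without GlastiKO replicate 1 (-0.32), and that for Peg3 in ECiKO without ECiKO replicate 1 (0.60). Peg3 in GlastiKO moved to -2.61 without GlastiKO replicate 1 and -0.24 without GlastiKO replicate 2. Grb10 in ECiKO moved to -9.37 without ECiKO replicate 1, a fitted value against 0 UMIs that is no bound. None of these was called.

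**Figure D3:**
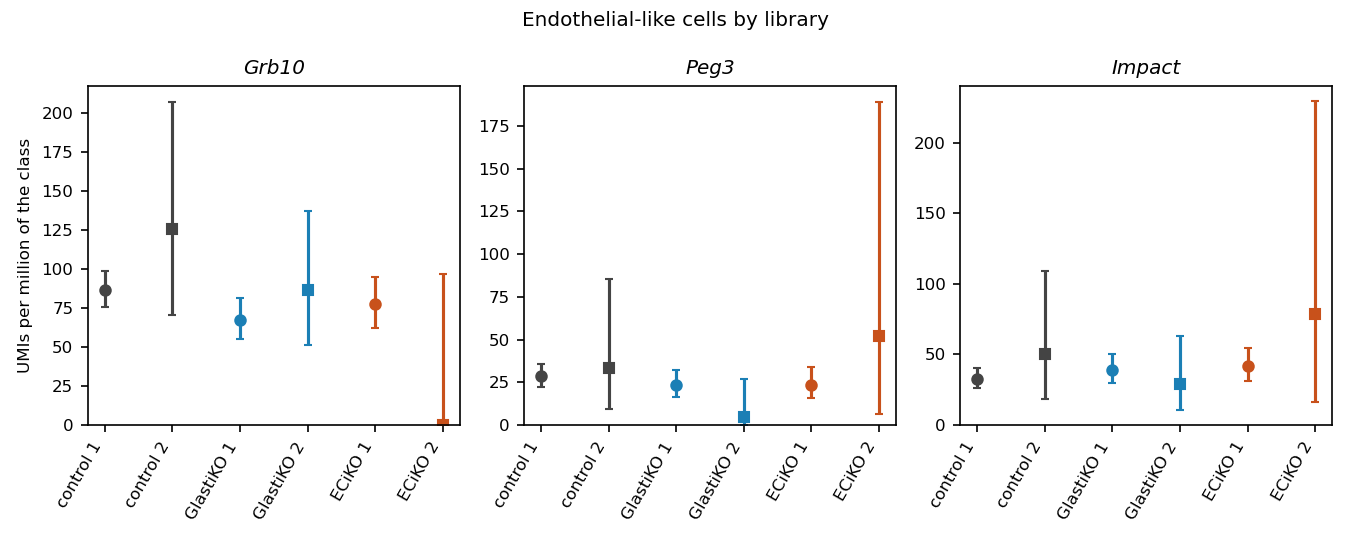
Levels of Grb10, Peg3 and Impact in endothelial-like cells (CPM, y axes from 0) for the 6 libraries; bars are 95% exact Poisson intervals, circles libraries numbered 1 and squares those numbered 2. The libraries numbered 2 hold 46, 64 and 21 such cells and have wide intervals; Grb10 is at 0 in ECiKO replicate 2.

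Igf2, the growth factor gene, was found mainly in choroid plexus-like and pericyte-like cells. Choroid plexus-like cells held 56.1% of its 947 UMIs, with 1296 CPM in control replicate 2 (6 cells), 404 CPM in GlastiKO replicate 2 (19 cells) and 847 CPM in ECiKO replicate 2 (62 cells). Their intervals (1126 to 1486, 341 to 476 and 728 to 981 CPM) do not overlap, but the cells are few and each is 1 library. Pericyte-like cells had 319 and 492 CPM in control, 256 and 592 CPM in GlastiKO and 430 and 374 CPM in ECiKO, so the groups overlapped. Fibroblast-like cells, at most 4 in a library, held 75 of the 947 Igf2 UMIs (7.92%). A UMI of Igf2 was found in 18.2 to 66.7% of pericyte-like cells of a library, in 38.7 to 100% of choroid plexus-like cells and in 0.119% of endothelial-like cells. Oligodendrocyte-like cells of ECiKO replicate 2 had 24 UMIs against 1 in control, beside the rise in choroid plexus markers given above, and the part of those markers was not tested. H19, the noncoding RNA gene next to Igf2, had 0 UMIs in each class of at least 20 cells.

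**Figure D4:**
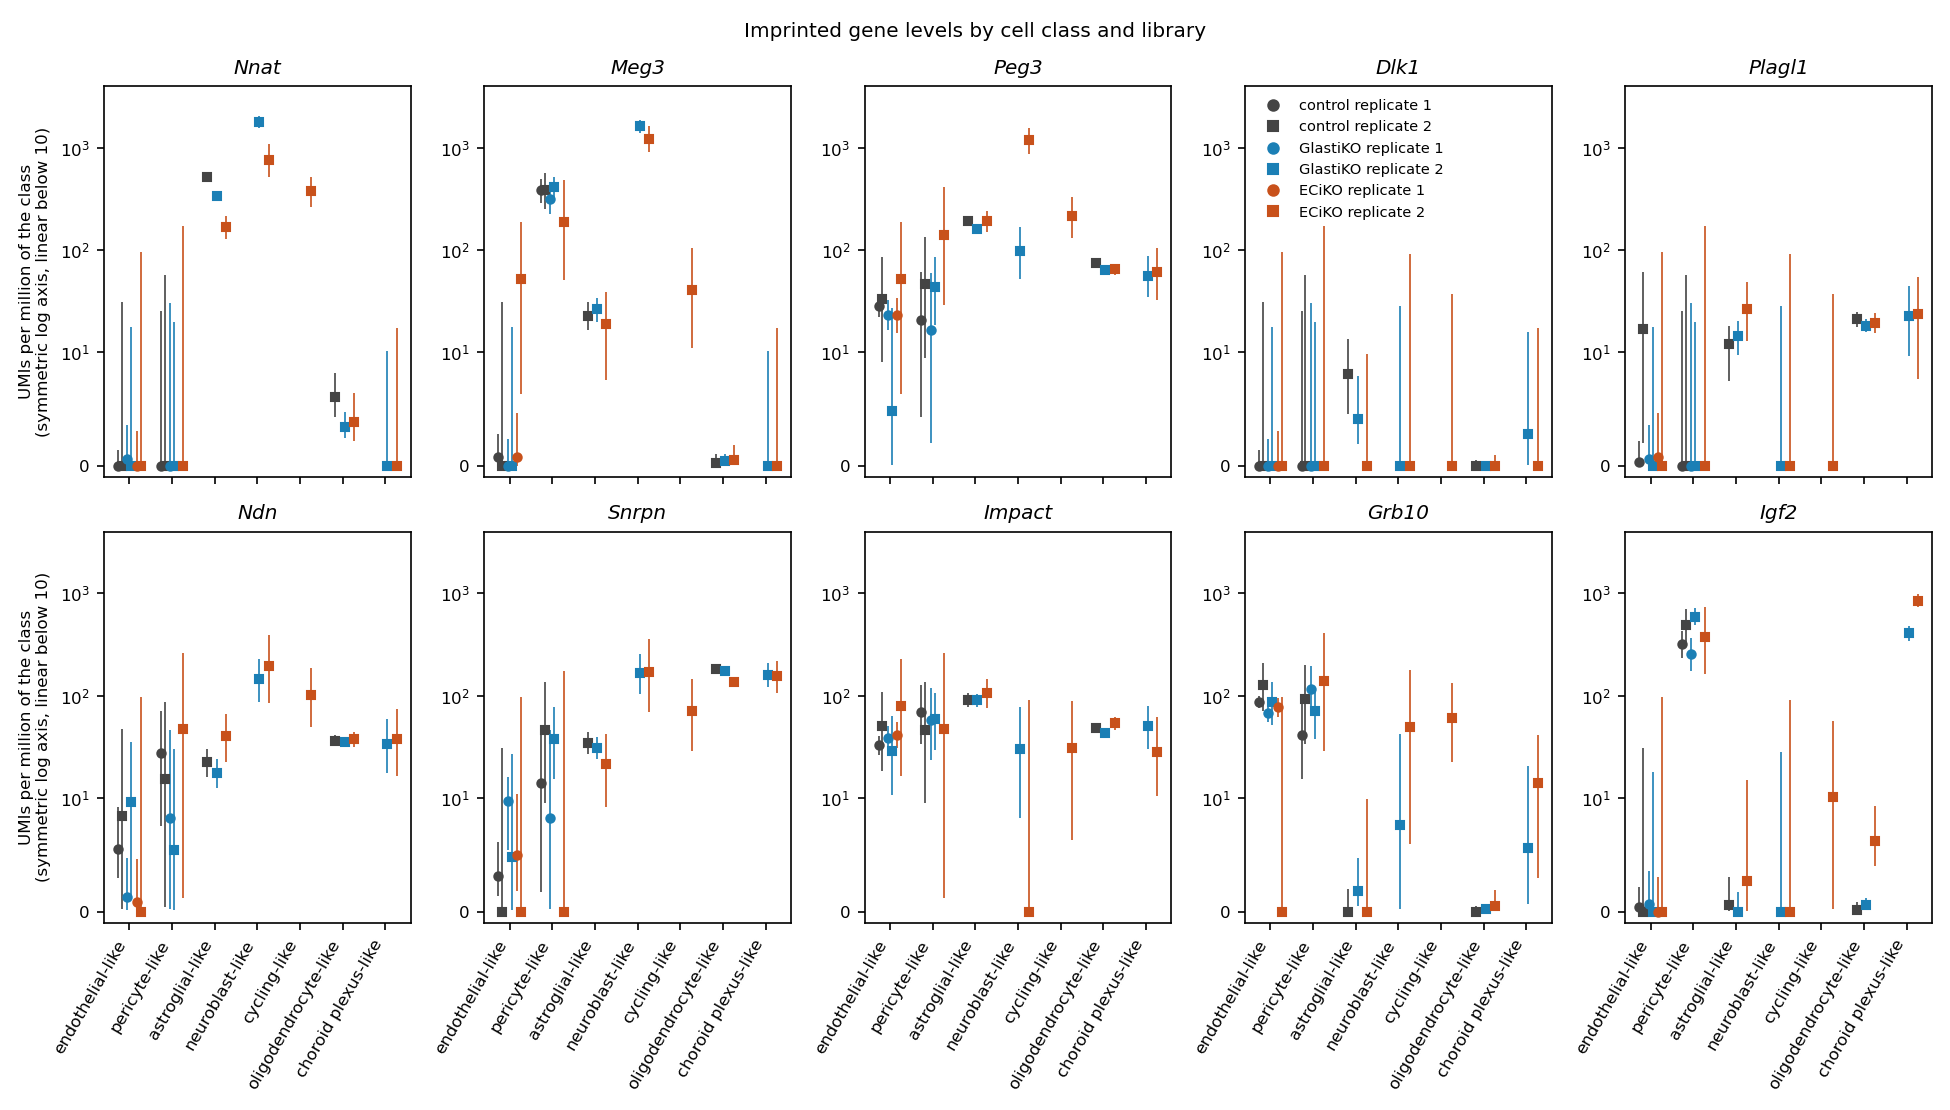
Level of each of the 10 genes (CPM of a class, symmetric log axis that is linear below 10) in the cell classes of each library with at least 10 cells; colours are groups, circles libraries numbered 1, squares those numbered 2, and bars 95% exact Poisson intervals. Nnat is high in astroglial-like and neuroblast-like cells and is also found in cycling-like cells, drawn for ECiKO replicate 2 alone. Meg3 is high in pericyte-like and neuroblast-like cells and Igf2 in pericyte-like and choroid plexus-like cells. Snrpn is high in oligodendrocyte-like and choroid plexus-like cells, and Grb10 in endothelial-like and pericyte-like cells.

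Of 44 other imprinted genes listed beside the members, 43 were in the files and 37 had a UMI. In astroglial-like cells 12 had enough UMIs for GlastiKO and none passed the 1.5-fold threshold. For ECiKO 9 had enough, of which Sgce, named after its value was seen, was lower at 0.527 (0.255 to 0.983). Sgce had 103 UMIs in control and 11 in ECiKO, so it met the 100 UMIs through control, which favours a lower call. Of all 3760 genes counted there 6.94% were lower. In oligodendrocyte-like cells Peg10 (0.645) and Begain (0.599), also named after their values were seen, were lower in GlastiKO among 24, and none of 21 passed in ECiKO. Of all 8909 genes of this class counted for GlastiKO 0.988% were lower. In endothelial-like cells edgeR tested 20 and called none in either comparison, with 0 at an unadjusted p under 0.05. By total UMIs the leading genes were Gnas, Kcnq1ot1, Inpp5f, Ube3a, Nap1l5 and Commd1. Gnas, the gene of a stimulatory G protein subunit, had 1177 to 1631 CPM in endothelial-like cells of the 6 libraries, 363 to 457 CPM in astroglial-like cells and 2250 CPM in choroid plexus-like cells of ECiKO replicate 2. Kcnq1ot1, a noncoding RNA gene that silences its neighbours on 1 parental copy, had 458 to 585 CPM in astroglial-like and 165 to 207 CPM in oligodendrocyte-like cells. Inpp5f, a phosphoinositide phosphatase gene, had 326 to 349 CPM in oligodendrocyte-like and 32.0 to 42.8 CPM in astroglial-like cells, and Nap1l5 had 234 to 260 CPM and 78.5 to 96.1 CPM in the same classes.

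The receptors through which Igf2 and Grb10 act were mainly endothelial. Igf1r, the IGF1 receptor gene, had 1339 to 2511 CPM in endothelial-like cells of the 6 libraries and 90.9 to 114 CPM in astroglial-like cells. Insr, the insulin receptor gene, had 255 to 419 CPM and 80.7 to 98.4 CPM in the same classes. Igfbp7, a secreted binding protein gene, had 1099 to 2366 CPM in endothelial-like and 3502 to 4120 CPM in pericyte-like cells. Igf2r, which clears Igf2, had 97.1 to 140 CPM in pericyte-like cells of the 3 libraries with at least 20 of them and at most 25.1 CPM in endothelial-like cells. Over all 8640 genes tested in endothelial-like cells edgeR called 0.301% in GlastiKO and 0.208% in ECiKO. Of 13 genes of the IGF axis it tested 7 and called 1 in both comparisons. This was Igfbp3, an IGF binding protein gene named after its value was seen. Its log2 fold change was -2.38 ± 0.30 in GlastiKO (edgeR adjusted p = 7.59e-12). In ECiKO it was -2.27 ± 0.34, at an edgeR adjusted p of 2.62e-08. Of the 573 Igfbp3 UMIs of control replicate 1, 506 were in a cluster with Plvap and Esm1 among its leading genes. The cluster has 31 cells in that library and 3 in the others. In control replicate 2, 59 of 62 Igfbp3 UMIs were in 1 cell of that cluster. Without that cluster the log2 fold change was 0.86 in GlastiKO (0.9999, edgeR adjusted p) and 1.21 in ECiKO (0.9998, edgeR adjusted p), so the direction rests on it.

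In astroglial-like cells of ECiKO replicate 2 the binding protein genes Igfbp2 and Igfbp5 were higher than in control, among 4 IGF axis genes with enough UMIs. Of all 3760 genes counted there 7.53% were higher. Igfbp2 had 140, 175 and 246 CPM in control, GlastiKO and ECiKO (ratio of ECiKO to control 1.76; 1.37 to 2.24) and Igfbp5 had 106, 94.3 and 192 CPM (1.82; 1.37 to 2.40). Igfbp2 is also a choroid plexus transcript, with 1318 CPM in choroid plexus-like cells of that library, whose astroglial-like cells had the higher choroid plexus marker sum given above; their part was not tested. Of 8 genes that keep imprints (led by Ctcf, Dnmt3a, Zfp445, Trim28, Dnmt1 and Uhrf1) none of the 3 with enough UMIs passed in astroglial-like cells, and edgeR called 0 of 5 in endothelial-like cells. Of the calcium pump genes related to neuronatin's role, Atp2a2 had 695, 553 and 684 CPM in astroglial-like cells of control, GlastiKO and ECiKO, with a ratio to control of 0.985 in ECiKO and 0.795 in GlastiKO, neither past the threshold. Atp2a3, Pln, Sln and Atp2a1 had 279, 49, 5 and 4 UMIs in all cells.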

How the data were processed

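The deposited values are UMI counts per gene and barcode, raw and not normalized by the authors. Per the file headers they come from Cell Ranger 5.0.0, and per the submitters' processing notes, which name Cell Ranger 2.1.1, Seurat 4 and mm10, the version differs. Cells needed 300 genes and at most 20% mitochondrial UMIs; Scrublet in scanpy 1.11.5 removed 36 doublets (0.569% of 6323). A cell joined the class whose mean marker level, each marker scaled to its upper quartile among positive cells, was at least 0.15 and 0.1 above the next, with 3 markers detected; 248 cells met no gate. Class names rest on RNA alone. Leiden clusters (leidenalg 0.10.2, resolution 1) were used as an alternative and within astroglia.

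Counts were summed per class and library. For endothelial-like cells edgeR 4.0.16 in R 4.3.3 was fitted to these sums (filterByExpr, TMM, group only, Benjamini-Hochberg at 0.05 over 8640 genes, 3 residual degrees of freedom), with DESeq2 1.42.0 beside it. The p-values measure the spread between 2 libraries per group, which the labels call biological replicates but which differ in cell make-up. Scripts were tested on simulated data. Members and lists were chosen with earlier results of these data known. All members were described; of each list up to 6 genes with the most UMIs were named, plus Blcap, Usp29 and, outside the rule, Rian, H19, Snurf and Igf2r as neighbours or a receptor of members, and the 5 genes most like Nnat and Meg3.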

Additional observations from a re-analysis of the deposited data

Results flagged for a closer look

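In astroglial-like cells the Nnat ratio of GlastiKO replicate 2 to control replicate 2 was 1.43 in cluster 4 and 0.608 in cluster 9, so the 2 clusters of the same libraries moved in opposite directions; the difference between them was not tested. Cells that met no class gate were left out of the comparisons, and in GlastiKO replicate 2 their Nnat level was 991 CPM (295 UMIs; 881 to 1111) against 475 CPM in control replicate 2 (24 UMIs; 304 to 706) and 264 CPM in ECiKO replicate 2 (69 UMIs). These cells number 31, 6 and 193 in the 3 libraries. The leading genes of the 248 such cells of all libraries, most of them from ECiKO replicate 2, were Npy, Sox11, Fabp7, Hmgb2, Ccnd2, Top2a, Sox4, Kctd12, Plppr4 and Hist1h2ap.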

How the results depend on the processing

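The Nnat ratio of ECiKO to control, 0.322, was 0.240 in cells with at least 500 genes, 0.241 in cells with at least 1000 UMIs, 0.226 without cluster 10, 0.505 with cells thinned to 500 UMIs, 0.567 as a mean over cells and 0.945 in cluster 10 alone. The GlastiKO ratio, 0.650, was 0.779 without cells that carry ependymal, choroid plexus, neuroblast or neuron marker UMIs, 0.970 in cluster 10 and reversed to 1.43 in cluster 4; the cause was not tested. The settings by cluster were chosen after seeing the data. Of 160 member levels, 98 lay within the reported 95% interval when cells were thinned, and 100 of 120 without cells that carry other markers, a set that holds fewer classes; under the other 5 settings 144 to 157 did.

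The counts of genes edgeR called in endothelial-like cells, none a member, were 26 (GlastiKO) and 18 (ECiKO). They were 28 for ECiKO without the low-count filter, 2 and 2 with DESeq2, and 9 and 1 without the Plvap and Esm1 cluster, a setting chosen after seeing the data. Leaving out 1 library gave 3 (without control replicate 1) to 34 for GlastiKO, with 9 without GlastiKO replicate 1 and 12 without ECiKO replicate 1. For ECiKO it gave 5 (without ECiKO replicate 1) to 34 (without ECiKO replicate 2), with 6 without control replicate 1 and 31 without GlastiKO replicate 2. With a replicate block they were 40 and 29; the labels tie the numbers to no animal, batch or fraction, and deviations of same-numbered libraries correlated at 0.0394 to 0.0866, but the numbers go with cell make-up in all 3 groups. Log2 fold changes that reversed were Impact in GlastiKO (-0.093 with DESeq2; -0.32 to 0.22 with 1 library left out), Impact in ECiKO (-0.065 to 0.91) and Peg3 in ECiKO (-0.28 to 0.60); none was called. The 21 endothelial-like cells of ECiKO replicate 2 limit every member there.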
